A study of Mus musculus with 47 samples.

Results

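The hippocampus was compared between 8 libraries labelled PICK1i and 7 labelled Saline, which are 15 of the 47 libraries of the series. Membership was taken from the tissue, treatment and replicate number in the titles. Polyadenylated RNA of mouse hippocampus and prefrontal cortex (PFC) was sequenced after saline, a PICK1 inhibitor (PICK1i) or a PSD-95 inhibitor (PSD-95i), and the stated aim was to compare expression between these treatments. The protocol in the labels describes DIO (diet-induced obese) mice of 53 g on average, 2 to a cage, injected once a day on 5 days with mPD5 at 56 mg/kg, UCCB01-147 at 25 mg/kg or isotonic saline. The last dose was given in the morning and the mice were killed 2 hours after it. mPD5 is known as a PICK1 inhibitor, and it was matched to the PICK1i label from that knowledge. The same protocol text names the hypothalamus as the tissue and 6 saline mice, which matches neither the hippocampus nor these 7 saline libraries. It is therefore uncertain whether its doses, times and housing apply here. The labels name no genotype, strain, sex or age. Nothing in the labels ties a library to a single mouse, so every p-value below measures the spread between libraries, which could in part be technical. The other hippocampal group, 8 PSD-95i libraries, shared the statistical model.

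PICK1 is a scaffold protein with a PDZ domain, which grips the tail of partner proteins, and a BAR domain, which binds curved membrane. It is best known for holding the GluA2 subunit of AMPA receptors, the fast glutamate receptors, and for helping to move these receptors away from the synaptic surface, a step studied mostly in hippocampal neurons. PSD-95 (gene Dlg4) is the PDZ scaffold that keeps glutamate receptors in place at the postsynaptic density. The hippocampus holds dentate granule cells, CA1 to CA3 pyramidal cells, interneurons and glia, and it borders the thalamus, the choroid plexus and the meninges. An inhibitor of protein binding need not alter any transcript, so RNA levels do not test whether PICK1 was reached.

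The markers of hippocampal cells were present, and 3 of the 15 libraries also carried high markers of another brain region. Levels are counts per library scaled to a common total (CPM) and adjusted for library composition, and a marker score is the mean log2 CPM of a marker list. Prox1, the transcription factor of dentate granule cells, ran from 56.5 to 158 CPM (median 121, n = 7) after saline and from 18.6 to 179 CPM (median 129, n = 8) after PICK1i. The CA1 marker Fibcd1 ran from 58.2 to 244 CPM (median 180.4, n = 7) after saline and from 27.1 to 229.6 CPM (median 145, n = 8) after PICK1i. PICK1i replicate 2 had the lowest Prox1 and PICK1i replicate 7 the lowest Fibcd1 of all 15. PICK1i replicate 7 held 173 CPM of the thalamic transcription factor gene Tcf7l2 and 329 CPM of Slc17a6, the glutamate transporter gene of thalamic neurons. In the other 7 PICK1i libraries Tcf7l2 ran from 3.76 to 20.3 CPM and Slc17a6 from 7.62 to 38.1 CPM. The thalamic score of replicate 7 was 7.42 and its CA1 score 2.92, and mitochondrially encoded genes took 14.2% of its counts. The striatal receptor genes Drd1 and Adora2a stood at 77.8 and 110.3 CPM in PICK1i replicate 2 and at 128 and 170.4 CPM in Saline replicate 1. In the remaining 13 libraries Drd1 stayed at or below 8.34 CPM and Adora2a at or below 3.01 CPM. Each result is therefore given with all libraries and without PICK1i replicates 2 and 7 and Saline replicate 1, which leaves 6 against 6. Other admixture remained in the 12: Ttr, the main transcript of the choroid plexus, reached 5326 CPM in Saline replicate 5 and 2161 CPM in PICK1i replicate 8, against 10.6 to 203 CPM in the other 10. In bulk tissue, fewer cells of a type and less RNA per cell cannot be told apart.

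**Figure D1:**
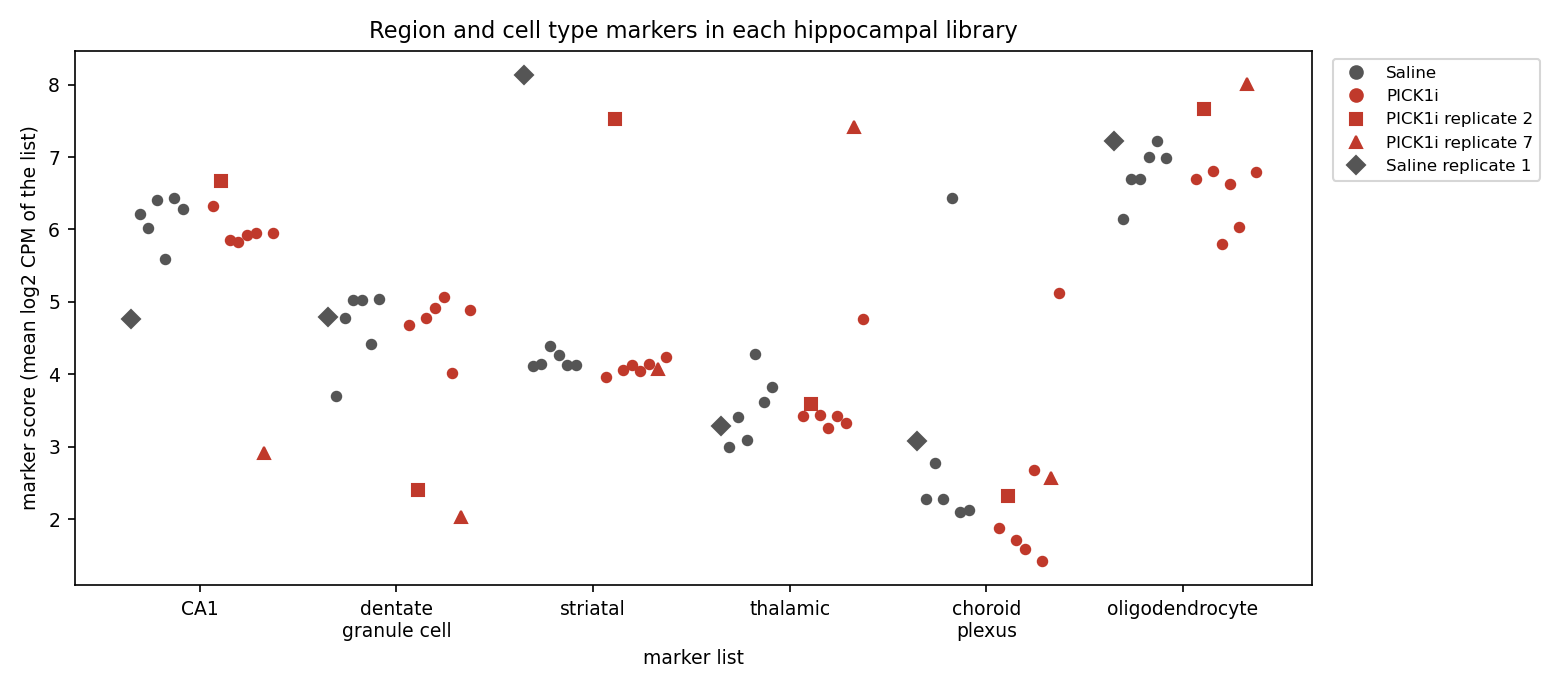
Marker scores (mean log2 CPM over each list, vertical axis) of 6 marker lists in the 8 PICK1i (red) and 7 Saline (grey) hippocampal libraries, 1 point per library. PICK1i replicate 7 (triangle) had a thalamic score of 7.42 and a CA1 score of 2.92, and the striatal scores of PICK1i replicate 2 (square) and Saline replicate 1 (diamond) were 7.52 and 8.13.

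Total estimated counts ran from 6398695 to 12871890 per PICK1i library and from 6401101 to 11394316 per Saline library, and the group means did not differ beyond their spread (exact permutation test, two-sided, p = 0.574, and p = 0.316 for the 12 libraries). The mitochondrially encoded share was 10.5% ± 1.69 (SD, n = 8) after PICK1i and 9.52% ± 0.807 (SD, n = 7) after saline, with an exact two-sided permutation p = 0.172. It was 9.75% and 9.42% in the 12 libraries (p = 0.457, exact permutation test).

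Pick1, the gene of the inhibited protein (chromosome 15, 79229173 to 79249484, plus strand, GRCm38), ran from 37.7 to 48.6 CPM (median 44.7, n = 7) after saline and from 39.7 to 57.7 CPM (median 45.7, n = 8) after PICK1i. The groups overlapped, and the log2 change was 0.06 with a 95% interval of -0.11 to 0.23, or -0.01 (-0.17 to 0.16) without the 3 libraries. Its exons share bases with those of Gm49486, a predicted gene on that strand, and the division of reads between them is uncertain. Dlg4 (chromosome 11, 70016942 to 70047522, plus strand) ran from 948 to 1097 CPM (median 1046, n = 7) after saline and from 598 to 1116 CPM (median 1004, n = 8) after PICK1i, where the lowest value belonged to replicate 7. Its log2 change of -0.11 (-0.29 to 0.07) became -0.03 (-0.15 to 0.09) without the 3 libraries.

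Of 15051 genes tested, 0 differed between PICK1i and saline, with edgeR's quasi-likelihood test at a Benjamini-Hochberg adjusted p under 0.05 (called genes, 0% of those tested). Without the 3 libraries the count was again 0 of 15309 (0%). The smallest adjusted p was 0.956 with all libraries and 1 without the 3. In alternative edgeR fits without the 3 libraries it was 0.119 with replicate number as a block and 0.212 without Saline replicate 2. DESeq2 and limma voom called 0 genes as well in both sets. At an unadjusted p under 0.05 there were 580 genes (3.85% of those tested, 395 higher and 185 lower after PICK1i), where 753 would be the expected number for p-values spread evenly. In the 12 libraries there were 506 (3.31%, 275 higher and 231 lower, against 765). DESeq2 had 715 and 516 genes at that level and voom had 661 and 757. The 2 lists shared 176 genes, which is 30.3% of the first and 34.8% of the second, all with the same sign. The 2 fits share 20 of 23 libraries.

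The median standard error of a log2 change was 0.107 with all libraries and 0.0975 without the 3. The median 95% interval reached 0.221 and 0.202 to either side, which corresponds to 1.17-fold and 1.15-fold. These intervals are not adjusted for the number of genes tested. For a gene of median precision, a change of that size would therefore not by itself be called, and larger estimated changes also went uncalled. Estimated changes of at least 2-fold were held by 74 genes with all libraries, 64 of them higher after PICK1i, and by 22 without the 3 libraries, of which 13 were lower. Of the 74, 13 stayed at or over 2-fold.

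**Figure D2:**
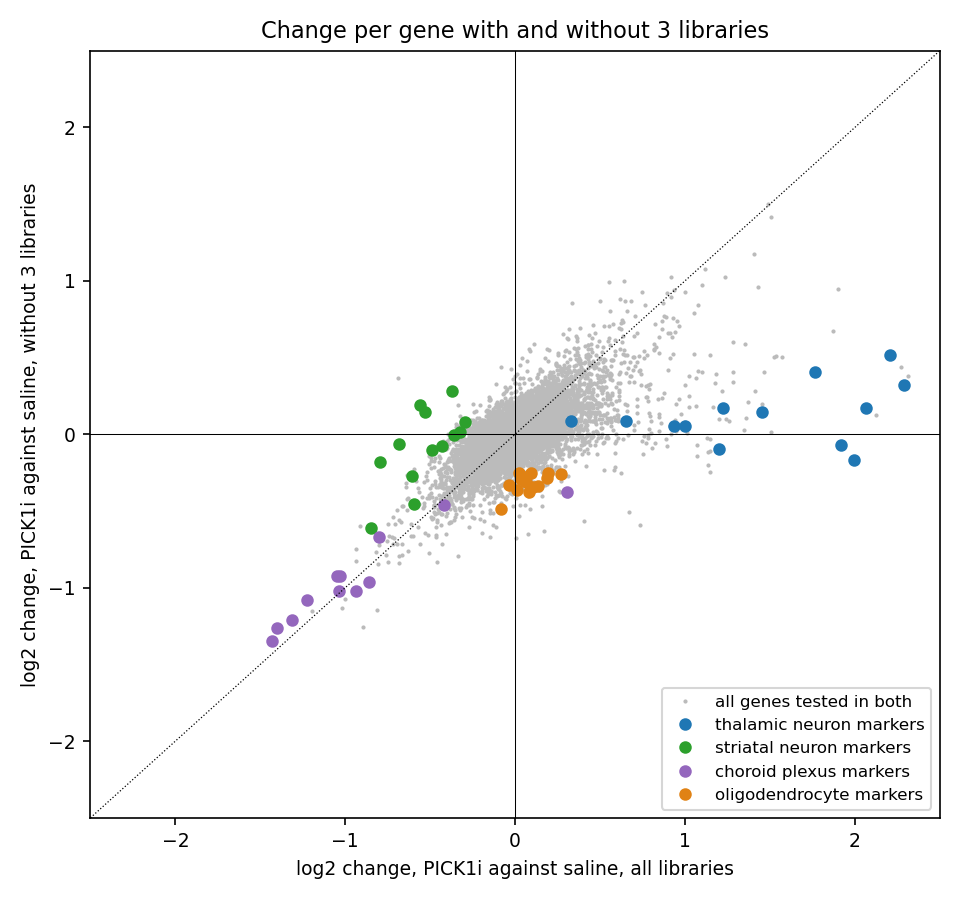
Log2 change after PICK1i against saline for each gene tested in both sets, with all libraries (horizontal) and without PICK1i replicates 2 and 7 and Saline replicate 1 (vertical), 1 point per gene; the dotted line marks equal values. Thalamic markers spread to the right with a median of 1.45 on the horizontal axis and 0.09 on the vertical one, and choroid plexus markers had medians of -1.03 and -1.02, negative in both sets but 0.79 when Saline replicate 5 alone was left out.

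The 10 genes with the smallest p over all libraries are given as values, since none passed the test (adjusted p = 0.956 for each). Rab23, a small GTPase gene of Hedgehog signalling (chromosome 1, 33719887 to 33742564, plus strand), ran from 23.1 to 26.9 CPM (median 23.9, n = 7) after saline and from 26.2 to 31.2 CPM (median 28.8, n = 8) after PICK1i. The groups overlapped at their edge, and the log2 change was 0.23 with a standard error of 0.05 (unadjusted p = 0.000314), or 0.20 ± 0.06 without the 3 libraries, where ± gives the standard error as in all log2 changes that follow. Xdh, the xanthine dehydrogenase gene of purine breakdown, ran from 13.5 to 17.3 CPM (median 14.4, n = 7) and from 13.6 to 25.2 CPM (median 20.3, n = 8) in the same order, a log2 change of 0.41 ± 0.11. Hey1, a repressor gene switched on by Notch, was the one with a negative change, -0.20 ± 0.05, with 41.3 to 47.5 CPM (median 44.4, n = 7) after saline and 34.7 to 41.4 CPM (median 38.7, n = 8) after PICK1i, ranges that met only at their edge. The others had positive changes: 0.26 for 2410131K14Rik, 0.73 for the Hippo pathway factor Tead3, 0.52 for Nostrin, 0.27 for Dnajc28, 0.87 for the interferon-induced GTPase gene Gvin1 and 0.29 for the selenoprotein gene Sepn1. Maff, a small Maf transcription factor gene, had the largest change of these (1.12), at levels of 0.158 to 1.13 CPM (median 0.885, n = 7) and 0.807 to 3.1 CPM (median 1.6, n = 8). Without the 3 libraries all 10 kept their sign, with log2 changes from -0.17 for Hey1 to 1.08 for Maff.

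In the 6 against 6 libraries the smallest p belonged to Slc27a3, a gene of the fatty acid transport protein family (chromosome 3, 90385239 to 90389938, minus strand). It ran from 6.48 to 8.56 CPM (median 6.77, n = 6) after saline and from 8.29 to 12.5 CPM (median 11, n = 6) after PICK1i, and PICK1i replicate 8 lay inside the saline range. Its log2 change of 0.56 had a standard error of 0.12 (unadjusted p = 0.000139, adjusted p = 1 in edgeR). With all libraries it was 0.34 ± 0.19, with PICK1i replicate 2 at 2.85 CPM and replicate 7 at 6.51 CPM. Plat, the gene of tissue plasminogen activator, a protease released at synapses and by vessels, ran from 36.1 to 45.8 CPM (median 38.2, n = 6) and from 44 to 51.1 CPM (median 47, n = 6), a change of 0.27 ± 0.06. Hs3st1, a heparan sulfate sulfotransferase gene, had -0.33 ± 0.08, but 0.06 ± 0.18 with all libraries. PICK1i replicate 7 held 32.4 CPM of it, against 10.6 to 14.5 CPM (median 12.5, n = 6) in the 6. Spry2, an inhibitor of growth factor signalling to ERK, had -0.28 ± 0.07 and the Wnt ligand gene Wnt9a -0.65 ± 0.18. The NF-kappa-B scaffold gene Card10 had 0.42 ± 0.11, Kcnc1, a potassium channel gene of fast-spiking neurons, 0.17 ± 0.05, Ccdc137 0.22 ± 0.06, and 2810428I15Rik -0.25 ± 0.06. Only 2410131K14Rik was among the 10 smallest p in both sets.

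Separation of the groups was rare. With all libraries, 0 genes had every PICK1i library above every saline library (0% of those tested) and 0 had every one below (0%). Without the 3 libraries, 11 were wholly above (0.0719%) and 9 wholly below (0.0588%). A random division of these libraries, with 924 possible ways, would also separate some genes, so the counts are not evidence of a change. The genes above included Flt1, a receptor gene for vascular endothelial growth factor, with 74.8 to 82.4 CPM (median 80.6, n = 6) after saline and 85.1 to 96.8 CPM (median 90.9, n = 6) after PICK1i, and Kdm6b, a histone H3 demethylase gene, with 62 to 72.6 CPM (median 71.2, n = 6) and 73.8 to 82.4 CPM (median 75, n = 6). The genes below included Cox6a1, Slc25a3 and Bnip3l. Cox6a1, a cytochrome oxidase subunit gene, ran from 189 to 230.4 CPM (median 204, n = 6) after saline and from 169 to 189 CPM (median 182, n = 6) after PICK1i. Slc25a3, the phosphate carrier gene, had a log2 change of -0.08 ± 0.04 and the mitophagy receptor gene Bnip3l -0.10 ± 0.04. All of these have an adjusted p of 1 in edgeR, and Flt1, Kdm6b, Cox6a1, Slc25a3 and Bnip3l were picked from the 20 after their values were seen. Drd1 was also below, with 5.91 to 8.34 CPM (median 7.65, n = 6) after saline and 3.93 to 5.75 CPM (median 4.82, n = 6) after PICK1i, far under the 128 CPM of Saline replicate 1. That left-out library also held 94.9 CPM of Flt1, inside the PICK1i range. PICK1i replicate 7, also left out, held 354 CPM of Slc25a3, against 253 to 274 CPM in the 6 saline libraries.

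AMPA receptor subunit genes, whose proteins PICK1 helps to traffic, overlapped between the groups in the 12 libraries, and none passed the test. Gria1, the gene of GluA1, ran from 1208 to 1746 CPM (median 1357, n = 6) after saline and from 1279 to 1610.3 CPM (median 1406, n = 6) after PICK1i, and Gria2, the gene of the PICK1 partner GluA2, from 726 to 999.8 CPM (median 776, n = 6) and from 731 to 904 CPM (median 791, n = 6). The log2 changes were 0.00 (-0.24 to 0.24) for Gria1, 0.00 (-0.17 to 0.18) for Gria2, -0.08 (-0.20 to 0.05) for Gria3 and 0.04 (-0.22 to 0.30) for Gria4, with 95% intervals in brackets. With all libraries the values were -0.18, -0.16, -0.14 and 0.29. PICK1i replicate 7 held 327 CPM of Gria1, 198 of Gria2 and 142 of Gria4, outside the range of every other PICK1i and saline library.

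**Figure D3:**
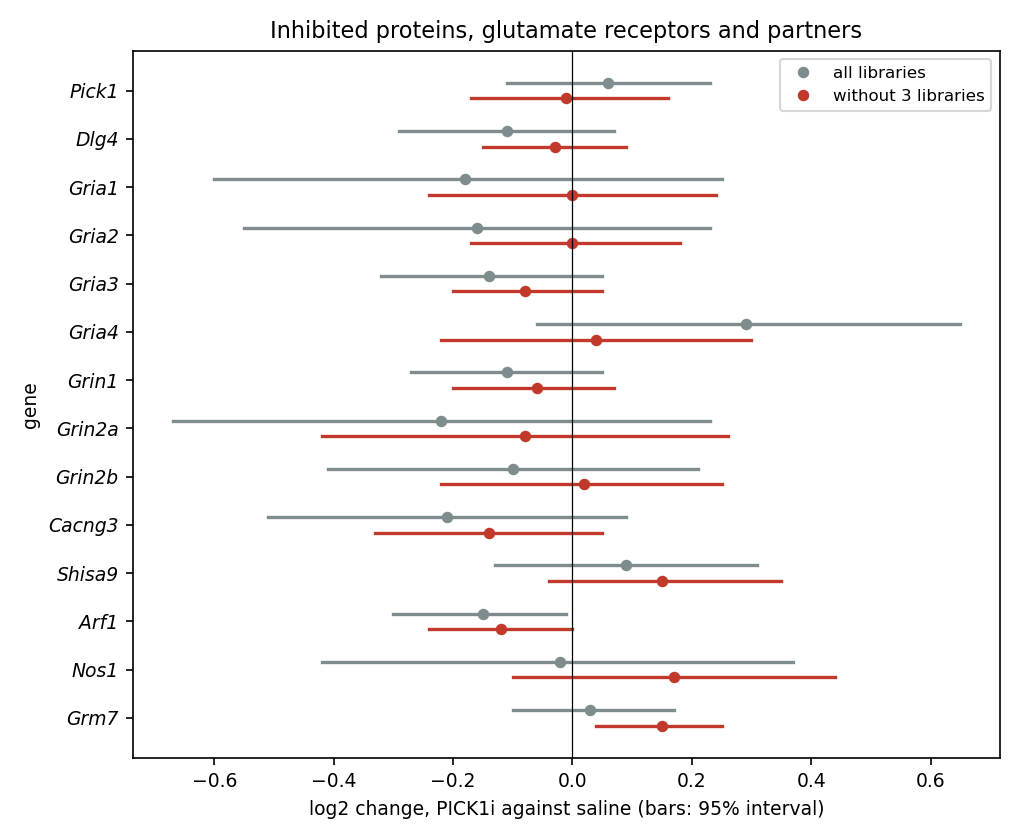
Log2 change after PICK1i against saline (points) with 95% intervals (bars) for Pick1, Dlg4 and 12 glutamate receptor and partner genes, with all libraries (grey) and without 3 libraries (red). The red points run from -0.14 for Cacng3 to 0.17 for Nos1, and 0 of the 14 genes passed the test.

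Among auxiliary subunits, trafficking proteins and scaffolds 0 genes were called. The tests adjust over all genes, and the lists and their members were chosen with earlier results of these data known. Of 16 AMPA receptor auxiliary subunit genes, 7 had a positive change without the 3 libraries (median -0.05). Cacng3, a TARP gene, had -0.14 ± 0.09 and Shisa9 0.15 ± 0.09. Of 21 genes of PICK1 and AMPA receptor trafficking, 7 were positive (median -0.01). Arf1, a small GTPase gene that binds PICK1 and limits its action on actin, had -0.12 ± 0.06 there and -0.15 ± 0.07 with all libraries (unadjusted p = 0.057 and 0.0425). It ran from 384 to 459 CPM (median 399, n = 7) after saline and from 271 to 421 CPM (median 374, n = 8) after PICK1i, and the lowest PICK1i value belonged to replicate 7. Of 22 postsynaptic scaffold genes, 2 of 22 were positive with all libraries (median -0.12) and 11 of 22 without the 3 (median 0.00). Over all genes tested, 7668 of 15051 and 7541 of 15309 were positive, with medians of 0.00 in both sets. The summed level of those scaffold genes was 4057 CPM in PICK1i replicate 7 and ran over the 6 PICK1i libraries from 10571 to 13142 CPM.

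NMDA receptors, the glutamate receptors tied to PSD-95, showed 3 of 6 positive changes (median -0.02). Grin1, the obligatory subunit gene, had -0.06 ± 0.07, and Grin2a and Grin2b had -0.08 ± 0.16 and 0.02 ± 0.11. Of 7 metabotropic receptor genes, 6 were positive, and Grm7, a presynaptic receptor gene whose protein is a PICK1 partner, had the smallest p of these lists (log2 change 0.15, standard error 0.05, unadjusted p = 0.00997). Grm7 ran from 58.9 to 67.8 CPM (median 60.8, n = 6) after saline and from 62.9 to 72.2 CPM (median 68.1, n = 6) after PICK1i, and with all libraries its change was 0.03 ± 0.07. Of 7 kainate receptor and Neto genes, 1 were positive with all libraries and 4 without the 3.

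Immediate early genes, which neurons transcribe soon after activity, gave 0 called of 53 tested in hippocampus. Arc, whose protein acts at active synapses and in AMPA receptor removal (chromosome 15, 74669083 to 74672570, minus strand), measured 123, 273, 94.6, 81, 97.9, 97.3, 28.7 and 125 CPM in PICK1i replicates 1 to 8. In Saline replicates 1 to 7 it measured 130.1, 67.9, 117, 109.6, 111, 122 and 145 CPM. The highest and the lowest of the 15 values belonged to PICK1i replicates 2 and 7, and the other 6 PICK1i libraries lay inside the saline range. The log2 change of Arc was 0.00 with a standard error of 0.28, or -0.12 ± 0.17 without the 3 libraries. The list as a whole had 32 of 53 positive changes (median 0.05) with all libraries and 26 of 53 (median 0.00) without the 3. PICK1i replicate 2 was also highest of the 15 for Nr4a1 (154 CPM), Junb (131 CPM), Egr1 (198 CPM) and Fos (22.9 CPM), and its dentate markers were low and its striatal markers high. Whether its tissue makeup took part in those levels was not tested.

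Within the 6 against 6 libraries, 7 of the 53 early genes had an unadjusted p under 0.05, beside 3.31% of all genes, with changes of both signs. Egr1 and Egr4, zinc finger factor genes of the same family, had -0.46 ± 0.16 and -0.28 ± 0.10. Egr4 ran from 24.1 to 39.8 CPM (median 30.1, n = 6) after saline and from 25 to 26.9 CPM (median 25.2, n = 6) after PICK1i, so the 6 PICK1i libraries lay close together at the lower end of the saline range. Dusp6, a phosphatase gene that switches off ERK, had -0.26 ± 0.11. Klf10, a TGF-beta-induced zinc finger gene, had 0.35 ± 0.11, from 26.1 to 34.7 CPM (median 30.2, n = 6) after saline to 30.1 to 46.7 CPM (median 39.8, n = 6) after PICK1i, and Maff had 1.08 ± 0.34. Each of these had an adjusted p of 1 in edgeR.

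In PFC, with 8 PICK1i and 8 Saline libraries, the same drug gave larger changes in several early genes than in hippocampus. The difference of the 2 effects was tested in a model of all 6 groups. Hippocampal and PFC libraries were treated as independent there, although the labels do not say whether the same mice gave both. Without the 3 hippocampal libraries, 7 of 15771 genes (0.0444%) were called, all 7 with a lower effect in hippocampus and all 7 on the early gene list. That list was written with the PFC result known, so its membership is not independent support. With all libraries 1 of 15658 (0.00639%) was called. Arc in PFC ran from 88.9 to 158 CPM (median 105, n = 8) after saline and from 242 to 484 CPM (median 315, n = 8) after PICK1i, and these groups did not overlap. In hippocampus, on the same scale and without the 3 libraries, it ran from 67.2 to 144 CPM (median 113, n = 6) and from 80.7 to 123 CPM (median 96.2, n = 6). The log2 changes were 1.55 and -0.12, and their difference was -1.68 ± 0.24 (adjusted p = 0.000257, edgeR).

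The other 6 genes followed in order of p. Per1, a clock gene that activity and glucocorticoids also induce, had a difference of -0.61 ± 0.09 (adjusted p = 0.000379, edgeR), from 0.55 in PFC and -0.06 in hippocampus. For the nuclear receptor gene Nr4a1 it was -1.14 ± 0.18 (adjusted p = 0.000822, edgeR), from 0.96 and -0.19. Junb, an AP-1 factor gene, had -0.82 ± 0.15 (adjusted p = 0.00933, edgeR), and Midn, which encodes midnolin, a guide of nuclear proteins to the proteasome, -0.52 ± 0.10 (adjusted p = 0.0146, edgeR). The phosphatase genes Dusp5 and Dusp6, which end ERK signalling, had -1.07 ± 0.21 (adjusted p = 0.0204, edgeR) and -0.70 ± 0.14 (adjusted p = 0.0308, edgeR). Egr1 (-0.89, adjusted p = 0.0678 in edgeR) and Egr4 (-0.72, adjusted p = 0.0777) came next and were not called. Striatal markers went the other way in PFC: 13 of 14 had a negative PICK1i change there (median -0.74), 9 at an unadjusted p under 0.05, beside 1094 of 15771 genes. In the difference between tissues 13 of these 14 were positive (median 0.64). Their summed level ran from 415 to 1221 CPM (median 473, n = 8) after saline and from 421 to 578 CPM (median 433, n = 8) after PICK1i in PFC, and its part in the difference was not tested. Over the early gene list of 53, 43 differences were negative with a median of -0.34, beside 8556 of 15771 genes and a median of -0.01. Reads of Junb and Dusp5 could include those of Prdx2 and AC137853.2, whose exons overlap them on the other strand, because no source used here says how strand was treated in counting.

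The calls between tissues depended on single libraries when all were kept. Per1, the 1 gene then called with -0.54 ± 0.10 (adjusted p = 0.0282, edgeR), was lost in 20 of 31 fits that left out 1 library, where the smallest adjusted p over all genes was 0.054 to 0.122. These were the fits without PFC Saline replicates 1, 2, 4, 5, 6, 7 or 8, PFC PICK1i replicates 3, 4, 5, 7 or 8, hippocampal PICK1i replicates 1, 3, 4 or 5, and hippocampal Saline replicates 1, 5, 6 or 7. Without hippocampal PICK1i replicate 2 the count was 8, namely Arc, Dusp5, Dusp6, Egr1, Midn, Nr4a1, Per1 and Spry2. With the 3 libraries set aside, Arc, Per1, Nr4a1 and Junb were called in 28 of 28 such fits. However, a fit with the replicate number within each tissue as a block did not call Junb or Dusp5. That block did not pair hippocampal with PFC libraries. Midn was called in 25, failing without hippocampal PICK1i replicate 5 or 8 or Saline replicate 6, and Dusp5 in 23, failing without hippocampal PICK1i replicate 4 or 6 or Saline replicate 4, 6 or 7. Dusp6 was called in 10 of the 28.

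**Figure D4:**
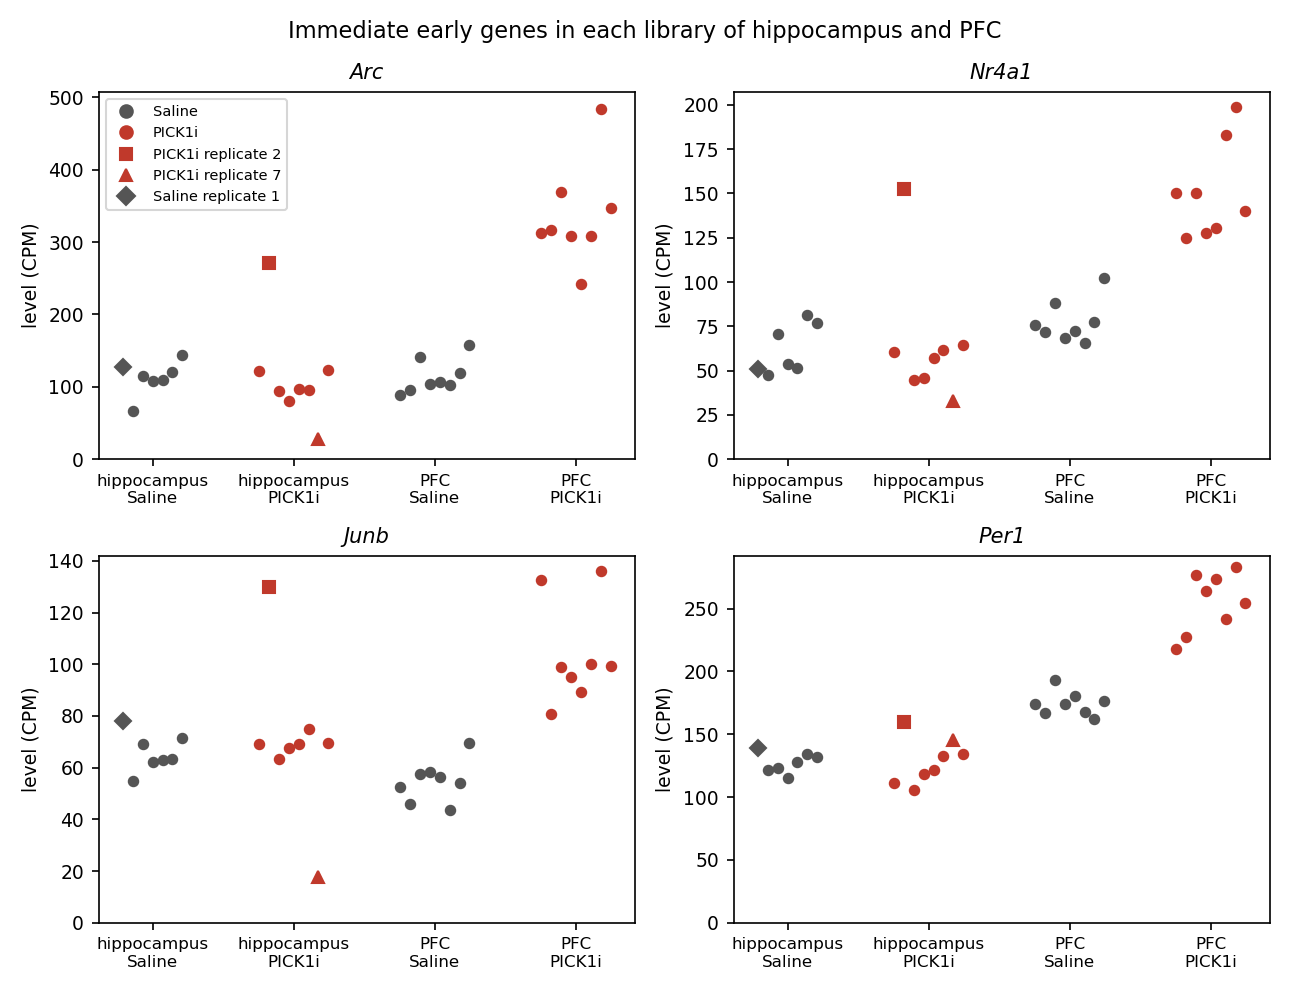
Levels (CPM, vertical axes from 0, scaled over all 47 libraries) of Arc, Nr4a1, Junb and Per1 in every Saline (grey) and PICK1i (red) library of hippocampus and PFC, 1 point per library. In PFC the PICK1i libraries lie above all saline libraries, with Arc from 242 to 484 CPM (median 315, n = 8), while in hippocampus the groups overlap and PICK1i replicate 2 (square) is the highest library for each of the 4 genes.

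Early gene promoters often hold sites for CREB (the cAMP response element), serum response factor (the CArG box) or, in clock genes, CLOCK and BMAL1 (the E-box). RefSeq promoters (build GRCm38.p6, 250 bases before to 50 after a start) matched 6 of the 7 genes, with 8 promoters. They are given for 3 genes whose PICK1i effect differed between tissues, as examples with several, with paired and with mixed motifs, chosen after the motif counts were seen: Nr4a1 (chr15:101266596-101266895), Dusp5 (chr19:53528895-53529194) and Per1 (chr11:69098699-69098998), all on the plus strand. Capitals mark matches, on either strand, to the half-site TGACG, the E-box CACGTG or the CArG box. The full element TGACGTCA, which contains the half-site, was searched too and matched none of the 3.
Nr4a1: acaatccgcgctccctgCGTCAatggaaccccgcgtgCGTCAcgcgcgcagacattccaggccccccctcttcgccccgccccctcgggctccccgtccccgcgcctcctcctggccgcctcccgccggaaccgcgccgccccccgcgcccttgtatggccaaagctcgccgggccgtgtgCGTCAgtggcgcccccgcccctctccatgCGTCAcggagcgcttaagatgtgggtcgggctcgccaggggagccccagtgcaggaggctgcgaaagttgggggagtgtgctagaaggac
Dusp5: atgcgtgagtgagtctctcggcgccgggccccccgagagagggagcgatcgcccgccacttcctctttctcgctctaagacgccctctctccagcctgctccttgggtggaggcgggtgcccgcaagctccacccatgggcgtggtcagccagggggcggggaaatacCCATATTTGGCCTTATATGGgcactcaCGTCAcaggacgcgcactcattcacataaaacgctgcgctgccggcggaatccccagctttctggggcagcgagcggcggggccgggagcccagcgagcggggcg
Per1: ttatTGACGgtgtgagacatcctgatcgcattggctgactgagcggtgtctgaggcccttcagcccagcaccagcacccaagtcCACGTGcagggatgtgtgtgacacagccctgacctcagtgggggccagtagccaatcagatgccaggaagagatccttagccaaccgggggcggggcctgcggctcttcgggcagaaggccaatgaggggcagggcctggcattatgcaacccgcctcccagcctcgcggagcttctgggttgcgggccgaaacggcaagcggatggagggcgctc
The Nr4a1 window held 4 half-sites, all read on the other strand. In Dusp5 there were 2 CArG boxes in a row and 1 half-site, and in Per1 1 half-site and 1 E-box. The promoters not printed held fewer: 1 half-site each in Junb, the second Per1 window and 1 Midn window, 1 E-box in the other Midn window, and 0 matches in Dusp6. Of all 32851 promoters in that table, 20.8% held the half-site, 1.79% the full element, 7.15% the E-box and 1.63% a CArG box. A match of letters describes the sequence and is not a shown binding site.

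Genes of the stress hormone response had mostly positive changes. Of 29 glucocorticoid-responsive genes tested, 22 were positive with all libraries (median 0.10) and 21 without the 3 (median 0.07), and 0 were called in either. 4 of 29 had an unadjusted p under 0.05 in each set, beside 3.85% and 3.31% of all genes. Xdh had the smallest p (log2 change 0.37, standard error 0.12, unadjusted p = 0.00682). Ddit4, an mTOR inhibitor gene, ran from 35.7 to 52.7 CPM (median 41.6, n = 6) after saline and from 45.1 to 61.8 CPM (median 47.1, n = 6) after PICK1i (log2 change 0.26, standard error 0.10, unadjusted p = 0.0201). Fkbp5, which encodes a brake on the glucocorticoid receptor, had 0.23 ± 0.10 without the 3 libraries and 0.05 ± 0.16 with them, with PICK1i replicates 2 and 7 at 21.3 and 15.3 CPM. The sulfotransferase gene Sult1a1 had 0.42 ± 0.19.

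Among 21 clock genes, 9 had a positive change without the 3 libraries (median -0.03), and 0 were called. Dbp, an output factor gene of the clock, ran from 56 to 76 CPM (median 61.8, n = 6) after saline and from 45.4 to 58.5 CPM (median 52.1, n = 6) after PICK1i (log2 change -0.26, standard error 0.08, unadjusted p = 0.00515). Nfil3, which encodes a repressor of the same DNA sites, had 0.25 ± 0.11, and Ciart, a clock repressor gene, -0.33 ± 0.16. Nfil3 ran from 6.7 to 9.11 CPM (median 7.83, n = 6) and from 8.6 to 10.5 CPM (median 9.5, n = 6), ranges that overlapped at their edge. With all libraries Dbp had -0.10 ± 0.13, with PICK1i replicates 2 and 7 at 93.5 and 79.7 CPM.

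Leptin and insulin signalling, which bears on obesity, had 17 of 28 positive changes with a median of 0.02 and 0 calls. The leptin receptor kinase gene Jak2 had -0.21 ± 0.09 and Irs1, an insulin receptor substrate gene, 0.19 ± 0.09. Cholesterol genes had a median of 0.03 (17 of 23 positive). Interferon-stimulated genes had 20 of 26 positive changes (median 0.10), and the antiviral gene Ifit1 ran from 1.04 to 3.51 CPM (median 2.29, n = 6) after saline and from 2.12 to 5.63 CPM (median 3.14, n = 6) after PICK1i (log2 change 0.61, standard error 0.28, unadjusted p = 0.0378). Inflammatory genes were few in number above the count filter, 9 of 18, and Ptgs2, the cyclooxygenase 2 gene, had -0.23 ± 0.11. Chaperone and unfolded protein genes had medians of 0.03 and -0.02. None of these lists had a called gene with or without the 3 libraries.

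**Figure D5:**
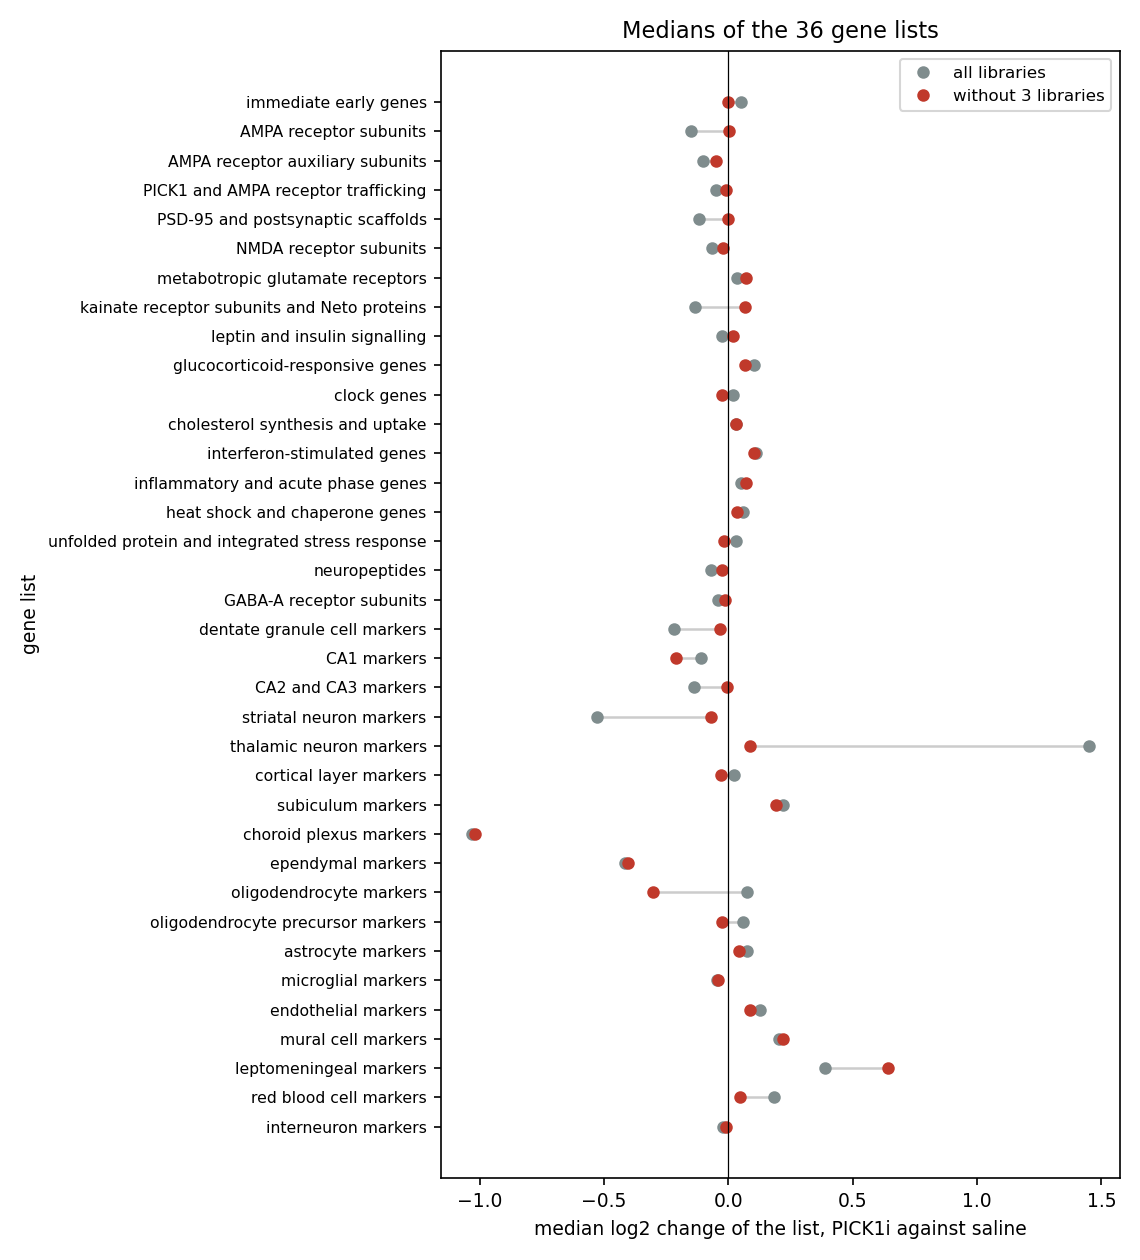
Median log2 change after PICK1i against saline of each of the 36 gene lists, with all libraries (grey) and without 3 libraries (red). The thalamic median went from 1.45 to 0.09 and the striatal from -0.53 to -0.07, while the choroid plexus median was -1.03 and -1.02, or 0.79 with only Saline replicate 5 left out.

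The largest list medians belonged to marker lists of regions and cell types, with 0 genes called. With all libraries the 13 thalamic markers tested were all positive (median 1.45). Of these, 10 had an unadjusted p under 0.05, beside 3.85% of all genes, led by Rgs16, a G protein regulator gene (log2 change 2.21, standard error 0.66, unadjusted p = 0.00302). PICK1i replicate 7, set aside for its thalamic markers, held 203 CPM of Rgs16. These p-values include the values for which that library was set aside, so they are no independent support. The 13 striatal markers were all negative (median -0.53). Over the alternative fits that median ran from -1.88 to 1.03, the highest being without Saline replicate 1 alone. In the 12 libraries the medians were 0.09 and -0.07. PICK1i replicate 8, which stayed in, still had Rgs16 at 22.9 CPM, against 7.8 to 9.65 in the other 5 PICK1i libraries. CA1 markers had 0 of 10 positive changes without the 3 libraries (median -0.21), against 2 of 10 with all libraries (median -0.11, or 0.03 without PICK1i replicate 7 alone), and dentate markers 5 of 11 (median -0.03).

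The median of the oligodendrocyte markers had opposite signs in the 2 sets. With all libraries 12 of 14 were positive (median 0.07), and without the 3 it was 0 of 14 (median -0.30). The median was -0.15 without PICK1i replicate 7 alone, -0.04 without PICK1i replicate 2 and -0.02 without Saline replicate 2. Mbp, the myelin basic protein gene, ran from 1474 to 3526 CPM (median 2463, n = 6) after saline and from 1082 to 2697 CPM (median 2147, n = 6) after PICK1i in the 12 libraries, while PICK1i replicates 2 and 7 held 4283 and 6329 CPM. Opalin, a late oligodendrocyte gene, had -0.49 ± 0.22. The summed level of the 14 markers ran from 3292 to 7557 CPM after saline and from 2473 to 5868 CPM after PICK1i, so the groups overlapped over most of their range.

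Vessel and meningeal markers had mostly positive changes without the 3 libraries, and 0 were called. Mural cell markers had 7 of 9 positive changes (median 0.22), 3 of them at an unadjusted p under 0.05, beside 3.31% of all genes. Abcc9, a potassium channel subunit gene of pericytes, ran from 8.42 to 11.8 CPM (median 10.7, n = 6) after saline and from 10.3 to 14.6 CPM (median 12.5, n = 6) after PICK1i (log2 change 0.30, standard error 0.10, unadjusted p = 0.00645), and the smooth muscle myosin gene Myh11 had 0.36 ± 0.15. Endothelial markers had 9 of 12 positive changes (median 0.09), with Flt1 described above. Leptomeningeal markers had 10 of 11 positive (median 0.64), and the summed level was 1701 CPM in PICK1i replicate 5, against 223 to 699 in the other 5 PICK1i libraries and 196 to 536 in the 6 saline libraries. With all libraries the leptomeningeal median was 0.39 and the mural median 0.20, and without PICK1i replicate 5 alone they were -0.08 and 0.06. Choroid plexus markers were all negative without the 3 libraries (13 of 13, median -1.02), beside the 5326 CPM of Ttr in Saline replicate 5. Their sign rested on that library: with all libraries but Saline replicate 5 the median was 0.79 and the log2 change of Ttr 1.33, and with all but PICK1i replicate 8 they were -1.84 and -3.70. Kl and Folr1, the other defining choroid genes, were also highest there, at 183 and 9.99 CPM. Astrocyte markers had a median of 0.04, with the connexin gene Gjb6 at 0.23 ± 0.10, and microglial markers -0.04.

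Against the 8 PSD-95i libraries of hippocampus, PICK1i gave 0 called genes of 15051 with edgeR, and 0 of 15309 without the 3 libraries. At an unadjusted p under 0.05 there were 734 and 465 genes. This comparison and that with saline share the PICK1i libraries, so values are given side by side only, and no other tool was run on it. Rab23 differed by 0.17 from PSD-95i and by 0.23 from saline, and Xdh by 0.10 and 0.41. Slc27a3, without the 3 libraries, differed by 0.35 and 0.56 on the log2 scale, and Arc by -0.11 and -0.12.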

How the data were processed

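The authors deposited estimated counts (expected counts, which need not be whole) per gene and per transcript, made with STAR and Salmon on GRCm38, with bcl2fastq 2.20.0 before them, per the submitters' processing notes. No STAR or Salmon version is stated there. Libraries were stranded and read as 52-bp pairs, per the labels' protocols. Counts were rounded and tested with edgeR 4.0.16 in R 4.3.3 (quasi-likelihood, robust, TMM, two-sided; filter with a minimum count of 10 and a minimum total of 15), with the 3 hippocampal groups in 1 model of 23 libraries, of 20 without the 3, and all 6 groups for the difference between tissues. Benjamini-Hochberg adjusted p under 0.05 over all genes was called. CPM uses TMM totals of the 23 libraries. The log2 CPM values, as in the marker scores, add a prior count of 2, while log2 changes came from the edgeR fits.

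There were 36 gene lists (545 of 546 genes matched). Named were Pick1, Dlg4, the AMPA subunits, the 10 smallest p per set, up to 4 members per list by p, the 8 smallest p for the difference between tissues, and defining markers; the 3 NMDA genes, Fos and the non-overlapping genes were added after their values were seen. Members, lists and tests were chosen with earlier results of these data known. Alternatives were RLE, other filters, DESeq2 1.42.0, limma 3.58.1, sva 3.50.0, transcript counts, a replicate block and leaving out libraries. Some alternatives for the fits without the 3 libraries and for the difference between tissues were added after seeing the data. Replicates of a group differed by more than counting noise. Positions are from GENCODE M21. A few marker genes are not reported here.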

Additional observations from a re-analysis of the deposited data

Results flagged for a closer look

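A library was singled out where its gap to the next library of its group exceeded Dixon's 95% limit, among the genes and lists of the text. This met 73 of 258 group values tested, where chance alone gives about 1 in 20. The share cannot be read against chance, because 52 of these values belong to the 3 libraries set aside for their striatal or thalamic markers, which are among the genes and lists tested. PICK1i replicate 7 accounted for 35 of them. It was highest of the PICK1i libraries for these genes, in CPM: Gria4 at 142, Sepn1 at 41.6, Slc25a3 at 354, Tcf7l2 at 173, Lef1 at 48.2, Slc17a6 at 329, Ramp3 at 102, Rgs16 at 203 and Nfil3 at 15.5. It was lowest for Dlg4 at 598, Gria1 at 327, Gria2 at 198, Gria3 at 122, Kl at 3.57, Fibcd1 at 27.1, Junb at 17.8, Egr4 at 2.48, Klf10 at 5.74, Arf1 at 271, Cacng3 at 27.4, Grin1 at 439, Grin2a at 111 and Grin2b at 265. Its list scores (mean log2 CPM) were highest for heat shock and chaperone genes at 6.70, unfolded protein and integrated stress response at 6.01, thalamic neuron at 7.42 and oligodendrocyte precursor at 4.85. They were lowest for AMPA receptor subunits at 7.52, AMPA receptor auxiliary subunits at 6.05, PICK1 and AMPA receptor trafficking at 6.44, PSD-95 and postsynaptic scaffolds at 6.35, kainate receptor subunits and Neto proteins at 4.97, inflammatory and acute phase genes at 2.80, CA1 at 2.92 and interneuron at 4.79.

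PICK1i replicate 2 was highest, in CPM, for Spry2 at 64, Drd1 at 77.8, Adora2a at 110.3, Rgs9 at 171, Nr4a1 at 154 and Penk at 424, and lowest for Slc27a3 at 2.85; its striatal score was 7.52. Saline replicate 1 was highest for Flt1 at 94.9, Drd1 at 128, Drd2 at 99, Adora2a at 170.4, Rgs9 at 253 and Penk at 580.4, and lowest for Hs3st1 at 10.8. Its striatal score was 8.13. Its score of NMDA receptor subunits was the lowest after saline at 6.445, against 6.838 to 6.978 in the other saline libraries.

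Single values stood apart in other libraries of their group too. Saline replicate 4 was lowest for Pick1 at 37.7 CPM, highest for Gria2 at 999.8 CPM, highest for Grin2b at 862 CPM, lowest for Vtn at 40.4 CPM and highest for the score of PSD-95 and postsynaptic scaffolds at 7.79. Saline replicate 2 was highest for Plat at 45.8 CPM, lowest for Arc at 67.9 CPM, highest for Nos1 at 177 CPM. Saline replicate 7 was highest for Kcnc1 at 222 CPM. Saline replicate 5 was highest for Ttr at 5326 CPM, highest for Kl at 183 CPM, highest for Folr1 at 9.99 CPM and highest for the score of leptin and insulin signalling at 5.78, highest for the score of choroid plexus markers at 6.44. Saline replicate 6 was highest for Midn at 47.1 CPM, lowest for Tmem212 at 0.474 CPM. PICK1i replicate 6 was highest for Cartpt at 14.7 CPM. PICK1i replicate 5 was highest for Vtn at 81.1 CPM and highest for the score of mural cell markers at 4.62. PICK1i replicate 4 was lowest for the score of interferon-stimulated genes at 2.28. PICK1i replicate 8 was highest for the score of choroid plexus markers at 5.12.

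The effect of PICK1i differed between hippocampus and PFC by a test of the difference itself. The gene was Per1 with all libraries (-0.54 on the log2 scale). Without the 3 libraries the genes were Arc (-1.68), Per1 (-0.61), Nr4a1 (-1.14), Junb (-0.82), Midn (-0.52), Dusp5 (-1.07) and Dusp6 (-0.70).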

How the results depend on the processing

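Called genes between PICK1i and saline in hippocampus numbered 0 under every alternative run, with all libraries and without the 3, including an adjusted p under 0.1. Transcript counts summed per gene gave the same number of genes tested and the same smallest adjusted p as the gene counts, so that fit is no separate check. The leave-one-out fits also ran from 0 to 0 calls. Of 4723 values of single genes under alternatives, 233 changed sign and 52 moved by more than the spread between replicates; as no gene was called, this gives no measure of the stability of calls. Of 900 list medians, 59 changed sign. For the difference between tissues with all libraries, 0 genes were called with no filter beyond 1 count, 2 with DESeq2 (Arc and Per1), 2 with the replicate block (Per1 and Stoml3) and 7 without the 3 libraries, and leaving out 1 library gave 0 to 8. Without the 3 libraries, DESeq2 called 10, no filter 5, the replicate block 9 and leaving out 1 library 4 (without hippocampal Saline replicate 6) to 11 (without hippocampal Saline replicate 2). The cause of these changes was not tested. The fits with no filter also tested more genes. Replicate numbers did not pair PICK1i and saline libraries: correlations of their deviations ran from -0.117 to 0.202, 2 of 7 were over 0.1, and 0 of 7 saline libraries correlated best with their own number. With 6 to 8 libraries a group and a median interval of 0.202 or more to either side, smaller changes in log2 level could not be resolved, nor could admixture below the level of these marker lists. That interval is not adjusted for the number of genes tested, so a call needed a larger change.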

Other observations

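Some lists without a place in the comparisons above had these values without the 3 libraries, and 0 of their genes were called by edgeR. Neuropeptide genes had 8 of 19 positive changes (median -0.03). Cck, a peptide gene of pyramidal cells and interneurons, ran from 194 to 319 CPM (median 271, n = 6) after saline and from 199 to 253 CPM (median 228, n = 6) after PICK1i (log2 change -0.22, standard error 0.10, unadjusted p = 0.0322). Cartpt, a peptide gene tied to feeding, had the highest change of that list and 14.7 CPM in PICK1i replicate 6 against 0.793 to 1.92 in the other 5 PICK1i libraries. GABA-A receptor subunit genes had 5 of 12 positive (median -0.01), interneuron markers 6 of 12 (median -0.01) and ependymal markers 0 of 8 (median -0.40, while leaving only Saline replicate 5 out of all libraries gave 0.10). Red blood cell markers had 5 of 5 positive with a median of 0.05, subiculum markers 5 of 7 with 0.19, cortical layer markers 6 of 14 with -0.03, CA2 and CA3 markers 5 of 12 with 0.00, and oligodendrocyte precursor markers 4 of 10 with -0.03.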
